A study of Mus musculus with 44 samples.

Results

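What fear extinction adds to fear conditioning was examined in Crh neurons of the amygdala by comparing extinguished mice (EXT) with fear-conditioned mice (FC) of the same batches. The labels, which do not say what a batch was, place all 12 FC mice in batches 1, 2 and 5, so the 10 EXT mice of those batches were taken, which gave 22 of the 44 mice of the series. Both groups received 5 pairings of a tone with a foot shock. EXT mice were then given 30 tones without shock on the following day, while FC mice were not. The tone-alone mice (TA) of the same batches, 16 in number, heard 5 tones without any shock and are shown for reference only.

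All mice were adults of the Crh-TRAP line, first-generation offspring of a Crh-Cre transgenic line and a line carrying a Cre-dependent eGFP-L10a in the Rosa26 locus. In translating ribosome affinity purification (TRAP), the tagged ribosomes are pulled down with an antibody against GFP, and the RNA bound to them is sequenced. The tag therefore marks cells in which the Crh promoter of the transgene has driven Cre, and RNA of other cells can be carried along. Each sample was the amygdala of 1 mouse, punched on both sides. EXT mice also differed from FC mice in being killed a day later, in spending the night between the sessions in the animal facility, and in having been placed in an unfamiliar chamber. The paper gives the same delay between the last session and death for all groups. The foot shocks were therefore given on the day of death in FC mice and on the day before in EXT mice. These differences cannot be told apart from the 30 tones. In bulk samples like these, fewer cells of a type and less RNA per cell cannot be told apart either.

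Immediate early genes are transcribed within minutes of neuronal firing, without new protein synthesis. Fos and Junb encode subunits of the AP-1 transcription factor, and Arc encodes a protein that acts at synapses in the removal of AMPA receptors. In many neurons these genes are induced when kinases downstream of calcium and cAMP phosphorylate CREB, which binds the cAMP response element (CRE) in their promoters. Their RNA is short-lived, so its level follows the recent activity of the cells. Crh neurons of the central amygdala are GABAergic, and are known for their part in fear learning and in responses to stress.

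Batch 1 held 2 EXT and 5 FC mice, batch 2 held 3 and 2, and batch 5 held 5 and 5. There were 6 males in each group, with 4 EXT and 6 FC females. The deposited values were log2 cpm (reads of a gene scaled to the effective library size) for 8203 genes, and whole reads were solved back from them. The effective size, called library size below, is the total used for scaling and not the number of reads sequenced. In EXT mouse 21 it was 14867706, below the 15313960 reads in the genes of the table. EXT libraries held 13054305 to 16787593 effective reads (median 15468096) and FC libraries 13431032 to 19257786 (median 16977973). By effective size, the EXT libraries were smaller than every FC library of their batch in batches 1 and 2 and overlapped with them in batch 5. By reads in the genes of the table, the groups also overlapped in batch 2 (EXT mouse 51 at 16090361, FC mouse 43 at 15645025). Across the 3 batches the effective EXT library size was 0.920 times that of FC (two-sided exact permutation test inside batches, p = 0.0120). Crh was detected in all 22 mice, but so was every gene of the table, with 34 reads or more. Its detection therefore cannot show which cells the RNA came from. The Crh median was 5.52 log2 cpm in EXT and 5.35 in FC. The GABAergic markers Gad1 and Gad2 were higher, with group medians between 8.87 and 9.29 log2 cpm. The GABA transporter Slc32a1 and the glutamate transporter Slc17a6 were not in the table. The other glutamate transporter gene, Slc17a7, had a median of 6.19 log2 cpm in both groups, so the purified RNA was not free of glutamatergic transcripts. Batch took 35.3% of the total sum of squares over all genes and sex took a further 6.30%. Of what remained, EXT vs. FC took 5.57% with 1 of 18 degrees of freedom, which is about the share it would take without any group difference.

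The EXT vs. FC difference of each gene was fitted with limma, with batch as categories and sex as a factor, and p-values were adjusted by the Benjamini-Hochberg method over all genes. No gene was FDR-significant (0 of 8203, 0.0%), and the smallest adjusted p was 0.260. An unadjusted p under 0.05 was found for 423 genes (5.16%), of which 225 were higher (2.74%) and 198 lower (2.41%) in EXT. The share of 5.16% is close to what a threshold of 0.05 passes when no gene differs. The median standard error was 0.13 on the log2 scale and the median size of a difference was 0.098. The plot of all genes shows where the lowest p-values lay. The 2 genes with the smallest p, Rsrp1 and Fos, were both lower in EXT, and Arc followed.

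**Figure D1:**
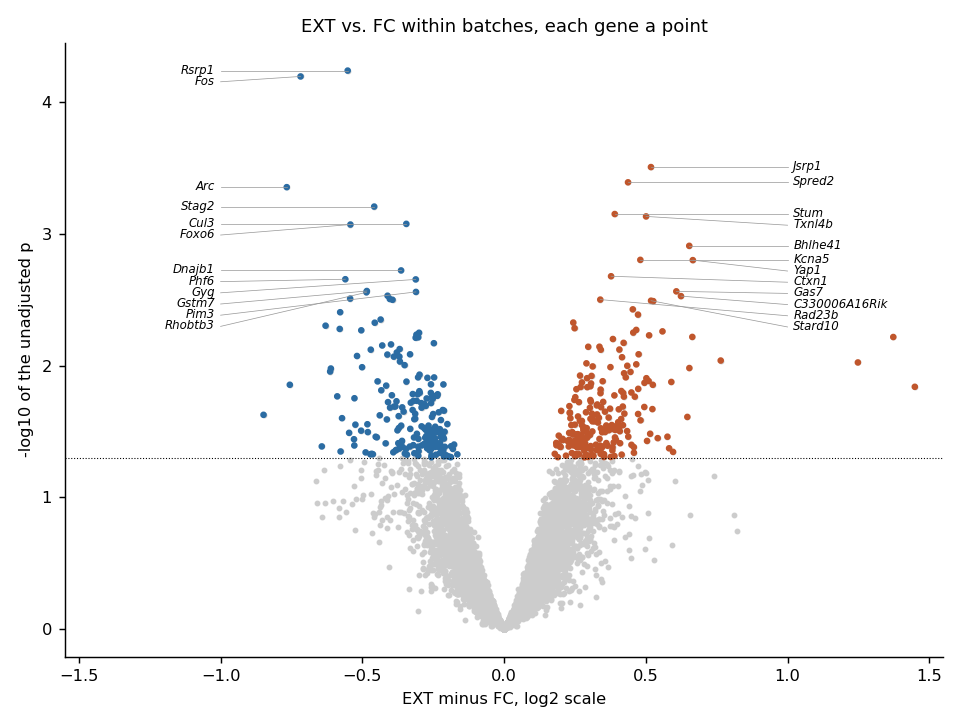
The EXT minus FC difference of each gene on the log2 scale (horizontal axis) against the −log10 of its unadjusted p from limma (vertical axis), with batch and sex in the model. Blue points are lower and orange points higher in EXT at an unadjusted p under 0.05 (dotted line); 12 genes in each direction, those of smallest p, are named, with Fos at −0.72 and Arc at −0.77.

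Fos, which encodes the AP-1 subunit c-Fos, stood lower in EXT than in FC mice of every batch. Its gene lies on chromosome 12 (GRCm38, chr12:85473890-85477273, plus strand). The 10 EXT mice had 3.65 to 4.33 log2 cpm (median 3.89), and the 12 FC mice 3.67 to 5.14 (median 4.67). These values rested on 163 to 310 reads per EXT mouse and 171 to 610 per FC mouse. The batches differed little in this respect. Here and below, a lack of overlap within a batch only describes, since batches 1 and 2 held few mice. The share of all genes without overlap in a batch was not counted. Crh, for example, did not overlap in batch 1 although its unadjusted p from limma was 0.799. In batch 1 both EXT mice (3.78 and 4.00) were below all 5 FC mice (4.19 to 5.02). In batch 2 the 3 EXT mice (3.69, 3.90 and 4.33) were below both FC mice (4.66 and 4.97). In batch 5 the 5 EXT mice lay between 3.65 and 4.31, and 4 of the 5 FC mice between 4.53 and 5.14, so that only FC mouse 47, at 3.67, overlapped with EXT. All 10 EXT mice were below the FC median of their batch, which held for 53 of the 8203 genes (0.646%).

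The fitted Fos difference was −0.72 ± 0.15 (log2, SE), or 0.608-fold in EXT (95% interval 0.493 to 0.750), with an unadjusted p of 6.35e-05 and an adjusted p from limma of 0.260. It was lower in males alone (−0.50, unadjusted p = 0.0288 from limma) and in females alone (−0.86, p = 0.00168), and the difference between the sexes was 0.36 ± 0.29 (unadjusted p = 0.229). Fos passed the FDR threshold in the fit without FC mouse 47, where its difference was −0.82 (limma adjusted p = 0.00865). It also passed with array weights, where samples that deviate more count for less (−0.76, adjusted p = 0.0178). Both fits had more genes at an unadjusted p under 0.05 (563 and 894, against 423). In no other fit did Fos pass, and its limma adjusted p reached 0.904 without 1 other mouse. Without 1 batch its adjusted p was 0.412 to 0.847. Mouse 47 was also the FC mouse with the smallest library (13431032 reads) and the lowest Crh (4.08 log2 cpm). With log2 library size in the model the Fos difference was −0.46 (unadjusted p = 0.00652), the smallest value of any fit made.

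Arc was lower in EXT by a similar amount, though less evenly over batches. The gene lies on the minus strand of chromosome 15 (chr15:74669083-74672570). EXT mice ranged from 4.83 to 6.28 log2 cpm (median 5.24) and FC mice from 5.23 to 6.85 (median 6.31). In batch 5 the 5 EXT mice (4.99 to 5.36) were separated from 4 FC mice (5.94 to 6.85), and FC mouse 47 was again the exception at 5.23. In batch 2 the groups overlapped, since EXT mouse 21 had 6.28, above both FC mice. Of the 10 EXT mice, 9 were below the FC median of their batch, a share reached or passed by 3.6% of all genes. The difference was −0.77 ± 0.19, or 0.588-fold (95% interval 0.450 to 0.768), with an unadjusted p of 0.000440 and a limma adjusted p of 0.695. Arc became FDR-significant with array weights (−0.90, adjusted p = 0.0353), and without batch 5 it lost its unadjusted p under 0.05 (−0.60, p = 0.0637).

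**Figure D2:**
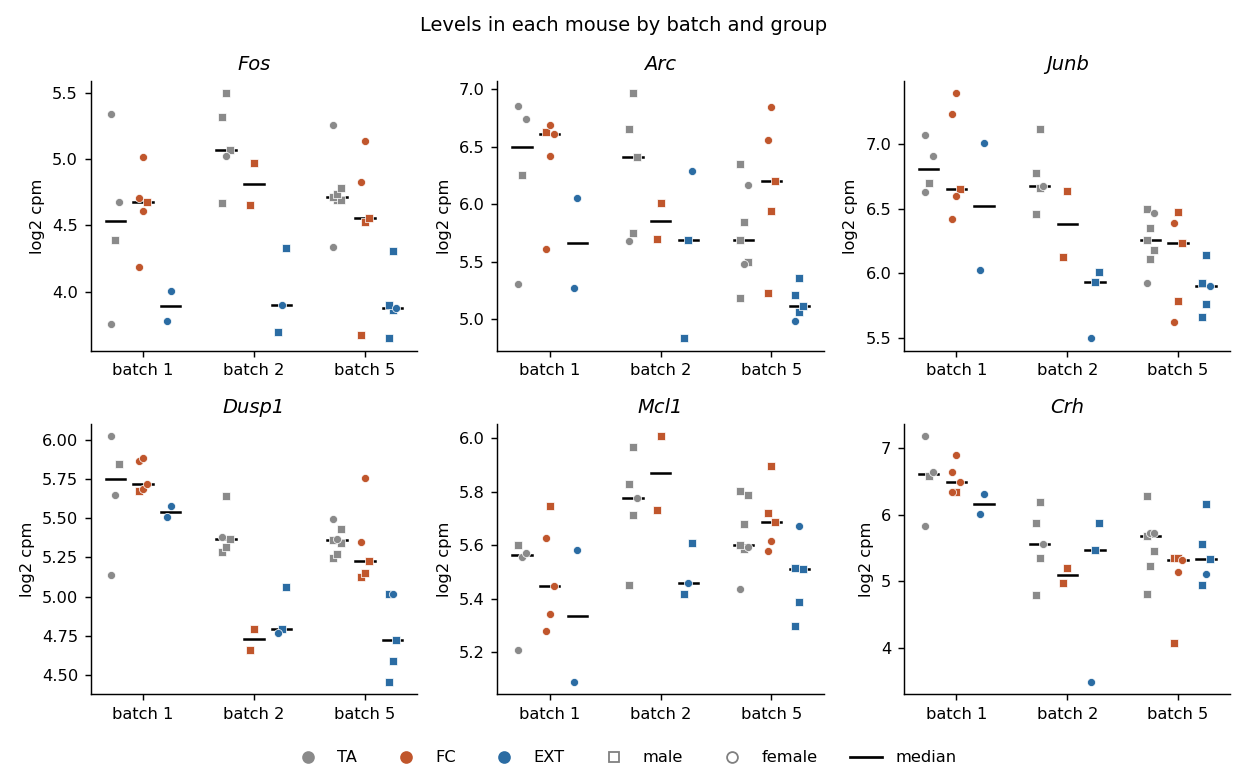
Level of 6 genes in log2 cpm (vertical axes) in each mouse of batches 1, 2 and 5, with TA in grey, FC in orange and EXT in blue, males as squares, females as circles, and group medians as black lines. For Fos the EXT mice of batches 1 and 2 lie below all FC mice of their batch and in batch 5 only 1 FC mouse, at 3.67, reaches down to them; for Crh they overlap in batches 2 and 5.

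The remaining immediate early genes at an unadjusted p under 0.05 differed by less. Junb (chr8:84974484-84978718), a second AP-1 subunit gene, ranged from 5.49 to 7.01 log2 cpm in EXT (median 5.93) and from 5.62 to 7.39 in FC (median 6.44). The groups overlapped in batches 1 and 5, and the highest EXT mouse was mouse 28. Its difference was −0.33 ± 0.15 (unadjusted p = 0.0412, adjusted p = 0.938 from limma). Its p was over 0.05 without any 1 of 10 mice (EXT mice 21, 26, 57 and 60, FC mice 12, 17, 18, 43, 45 and 48) and with log2 library size in the model (−0.22, p = 0.257). Junb overlaps Prdx2 on the other strand, and the library kit named in the labels does not mark strand, so reads of the overlap cannot be assigned.

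Dusp1, a phosphatase that switches off MAP kinases and a target of both neuronal activity and glucocorticoids, ranged from 4.46 to 5.58 in EXT (median 4.90) and from 4.66 to 5.89 in FC (median 5.51). It was lower in EXT in batches 1 and 5, where the groups did not overlap (the share of all genes that do so was not counted), and higher by 0.15 in batch 2. Its fitted difference was −0.31 ± 0.10 (unadjusted p = 0.00614, adjusted p = 0.938). Without batch 5 it was −0.06 (p = 0.708), and in males and females alone the p was 0.162 and 0.0632. The annotated Dusp1 locus (chr17:26505590-26562128) overlaps Ergic1 on the other strand. Mcl1, an anti-apoptotic BCL2 family member, differed by −0.23 ± 0.09 (unadjusted p = 0.0165), with values below 0 in all 3 batches, and lost this p without batch 2 (−0.20, p = 0.0774) and without batch 5 (−0.20, p = 0.247). The limma value for Mcl1 was −0.34 in males alone (p = 0.00665) and −0.03 in females alone (p = 0.852).

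Promoter sequence is shown for Fos, Junb and Dusp1, which were at an unadjusted p under 0.05 and had a matched motif upstream of the start. The promoter of Arc was not analysed here. The 250 bases before the transcription start were taken from RefSeq (GRCm38.p6) and are given 5′ to 3′ on the strand of the gene. Capitals mark the full CRE (TGACGTCA) and its core (TGACG), searched on both strands. A full CRE holds the core on both strands. The Fos stretch is chr12:85473640-85473889 on the plus strand, that of Junb is chr8:84978749-84978998 on the minus strand, and that of Dusp1 is chr17:26508473-26508722 on the minus strand.
Fos: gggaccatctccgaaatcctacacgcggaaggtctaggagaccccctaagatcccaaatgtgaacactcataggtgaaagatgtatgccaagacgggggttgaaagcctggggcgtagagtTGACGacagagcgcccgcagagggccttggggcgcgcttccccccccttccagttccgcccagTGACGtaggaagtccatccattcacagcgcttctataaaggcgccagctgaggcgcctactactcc
Junb: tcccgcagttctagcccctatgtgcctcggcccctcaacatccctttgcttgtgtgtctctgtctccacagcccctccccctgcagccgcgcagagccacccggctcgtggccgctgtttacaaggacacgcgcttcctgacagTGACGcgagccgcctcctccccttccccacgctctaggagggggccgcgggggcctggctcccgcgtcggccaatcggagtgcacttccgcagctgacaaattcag
Dusp1: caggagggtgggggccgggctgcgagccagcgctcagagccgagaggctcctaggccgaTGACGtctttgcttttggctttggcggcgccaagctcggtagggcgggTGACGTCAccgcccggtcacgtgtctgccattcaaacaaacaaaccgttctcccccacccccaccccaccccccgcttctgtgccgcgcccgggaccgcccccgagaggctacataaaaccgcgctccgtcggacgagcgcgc

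The Fos stretch holds a core 129 bases and another 66 bases before the start. Dusp1 holds the full element 143 bases before the start and a further core at 191. Junb holds 1 core at 106. Such matches are common: a core occurs in 20.8% of all 32851 promoter windows of 300 bases (250 before and 50 after the start) and a full CRE in 1.79%. The AP-1 element (TGACTCA), in 5.20% of the windows, was found in none of these 3. Rsrp1, which is not an early gene, also holds 2 cores, and Mcl1 holds a core only after the start. Promoter windows were available for 6393 of the genes tested. Of these, 2513 held a core (39.3%), with 2.51% of them lower and 2.27% higher in EXT at an unadjusted p under 0.05. A full CRE was held by 260 genes (4.07%). Of the 260, 8 were lower (3.08%) and 8 higher (3.08%), against 2.49% and 2.82% of all 6393. Their median difference was 0.018, against 0.0099 for all 6393. The share of genes with a CRE at an unadjusted p under 0.05 was thus near that of all genes in both directions.

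Of the 50 immediate early and activity-regulated genes listed, 23 were in the table, and 5 of the 23 (Fos, Arc, Dusp1, Mcl1 and Junb) were lower in EXT at an unadjusted p under 0.05 against 2.41% of all genes, with 0 higher against 2.74%. None was FDR-significant. The list median was −0.13, and 16 of the 23 differences were negative. The count of lower genes was 4 to 6 when any mouse was left out (143 to 282 of all genes lower). Without batch 2 it was 3 and without batch 5 it was 1. In these 2 fits 196 and 187 of all genes were lower, against 198 in the reported fit. The count was 5 in males alone and 2 in females alone, where 370 and 76 of all 8203 genes were lower. With the oligodendrocyte marker mean in the model it was 8, where 374 of all genes were lower. Genes not in the table, such as Npas4, Fosb, Egr2, Nr4a2 and Bdnf, had not passed the filter on low values applied before deposit to all samples together. The counts therefore cover the more abundant members.

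The 18 other members had intervals that included 0. Jun, whose product pairs with c-Fos, differed by −0.34 ± 0.21 and was lower in all 3 batches, while Jund differed by 0.11 ± 0.09. Among the EGR family of zinc finger factors, Egr1 differed by −0.12 ± 0.17 and Egr4 by −0.13 ± 0.17. Nr4a1, an orphan nuclear receptor induced by activity, differed by −0.20 ± 0.24. The signs within the list were mixed for genes of slower or other induction. Gadd45g (−0.24), Btg2 (−0.23), Nrn1 (−0.15), Scg2 (−0.14), Klf6 (−0.11), Ier5 (−0.11) and Rheb (−0.03) were below 0. Per1 (0.32), Ppp1r15a (0.18), Plk2 (0.17), Dusp6 (0.13), Homer1 (0.12) and Vgf (0.10) were above 0. Per1, a clock gene also induced by glucocorticoids, was uneven over batches, with differences of −0.42, 0.11 and 0.83 in batches 1, 2 and 5.

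**Figure D3:**
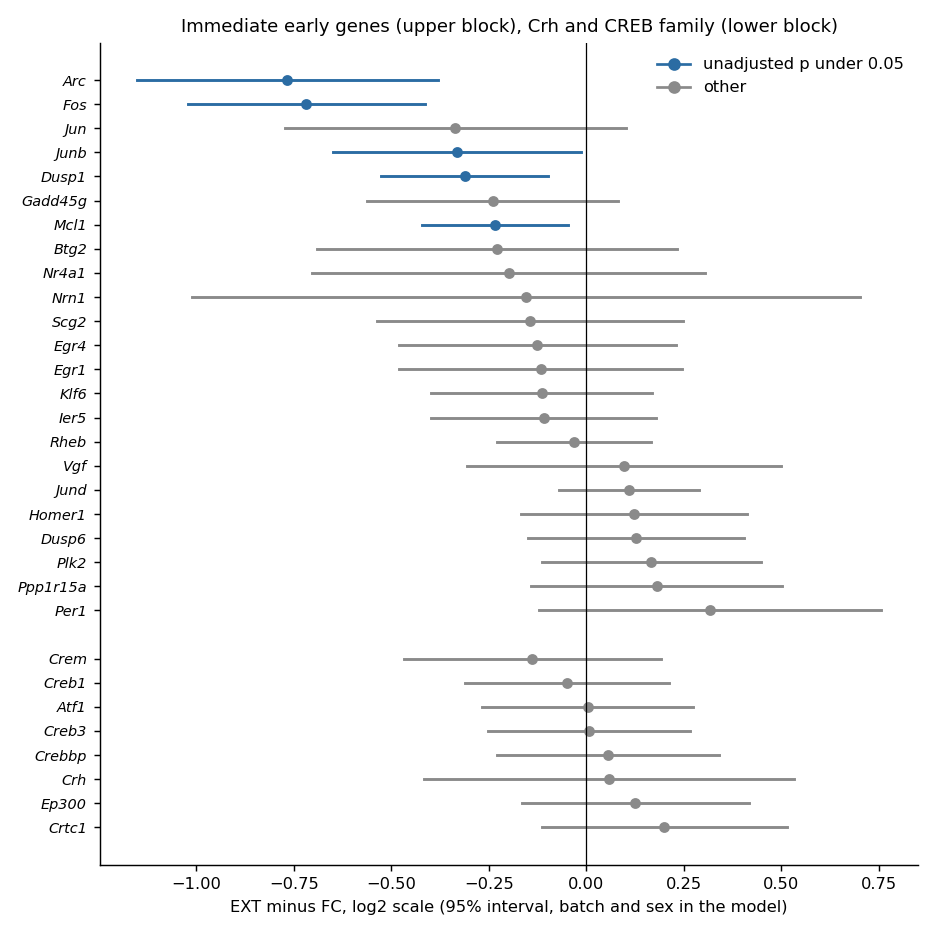
EXT minus FC difference on the log2 scale (horizontal axis) with its 95% interval from limma for the 23 immediate early genes in the table (upper block) and for Crh and 7 genes of the CREB family and its coactivators (lower block). Blue marks an unadjusted p under 0.05, reached by 5 early genes, all below 0, and by no gene of the lower block.

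Crh itself, whose promoter drives the Cre of this line, overlapped between the groups in batches 2 and 5, while in batch 1 both EXT mice (6.01 and 6.31) were below all 5 FC mice (6.34 to 6.90). The 10 EXT mice had 3.49 to 6.31 log2 cpm (median 5.52), and the 12 FC mice 4.08 to 6.90 (median 5.35). The difference was 0.06 ± 0.23 with a 95% interval of 0.750-fold to 1.45-fold (unadjusted p = 0.799). Levels differed more by batch than by group, since all 5 FC mice of batch 1 were above 6.3 and all 7 FC mice of batches 2 and 5 below 5.4. In males alone Crh was higher in EXT (0.58, unadjusted p = 0.0419), and the value in females alone was −0.33 (p = 0.0980). The difference between the sexes was 1.22 ± 0.38 with an unadjusted p of 0.00460 and a limma adjusted p of 0.871. EXT mouse 21, a female of batch 2, had the lowest Crh of the 22 mice, together with the highest sum of mitochondrially encoded transcripts (31319 cpm, against 311 to 9756 in the others).

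CREB1 is the factor that the study went on to manipulate in Crh neurons. Creb1 RNA ranged from 4.18 to 5.12 log2 cpm in EXT and from 3.63 to 5.00 in FC and differed by −0.05 ± 0.13, with an interval of 0.806-fold to 1.16-fold. The related factors Crem (−0.14 ± 0.16), Atf1 (0.00 ± 0.13) and Creb3 (0.01 ± 0.13) had intervals that included 0. So did the coactivators Crtc1 (0.20 ± 0.15), Ep300 (0.13 ± 0.14) and Crebbp (0.06 ± 0.14). Crtc1 was higher in EXT only in batch 5 (0.68), with −0.21 and −0.32 in batches 1 and 2. Of the 42 genes of the CREB family and its upstream signalling in the table, 3 were higher and 0 lower at an unadjusted p under 0.05, against 2.74% and 2.41% of all genes, with a median of 0.048. The 3 were Akap5 (0.50 ± 0.18), which anchors protein kinase A at synapses, Pde1c (0.65 ± 0.27), a phosphodiesterase, and Ppp1r1b (0.58 ± 0.27), the dopamine-regulated phosphatase inhibitor DARPP-32. The count of higher genes was 1 without EXT mice 26 or 60 or FC mouse 43 (190, 120 and 162 of all genes higher). It was 5 without EXT mouse 28 (343 of all genes higher). In males alone it was 5 and in females alone 0, where 392 and 58 of all genes were higher. With batch as a number it was 0 (174 of all genes), as with the astrocyte marker mean in the model (166).

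Set beside TA in 1 fit of the 38 mice of these batches, EXT and FC gave different values for the early genes. Fos was −0.89 ± 0.14 in EXT minus TA (limma adjusted p = 0.00342) and −0.14 ± 0.14 in FC minus TA (adjusted p = 0.676). Junb was −0.52 ± 0.13 (adjusted p = 0.0484) and −0.15 ± 0.12 (adjusted p = 0.588), and Dusp1 was −0.48 ± 0.10 (adjusted p = 0.0273) and −0.14 ± 0.09 (adjusted p = 0.523). For these 3 genes the fitted FC level lay between those of EXT and TA. Arc was −0.65 ± 0.19 and 0.12 ± 0.19, neither of them FDR-significant. These comparisons share their TA mice and are given side by side only. None of the following genes was FDR-significant against TA. Rsrp1 lay on opposite sides of TA by similar amounts, −0.30 ± 0.16 in EXT minus TA and 0.33 ± 0.15 in FC minus TA. For others the FC value was the one further from TA. Foxo6, Stag2 and Cul3 were 0.50, 0.28 and 0.25 in FC minus TA and −0.07, −0.17 and −0.05 in EXT minus TA. Kcna5 and Spred2 were −0.49 and −0.28 in FC minus TA and −0.01 and 0.14 in EXT minus TA.

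Rsrp1, which encodes an arginine- and serine-rich protein, had the smallest p of all genes. EXT mice ranged from 6.59 to 7.42 log2 cpm (median 7.14) and FC mice from 7.18 to 8.21 (median 7.75). The groups did not overlap in batch 1, and in batches 2 and 5 a single EXT mouse of each lay within the FC range. The difference was −0.55 ± 0.11, or 0.682-fold (95% interval 0.581 to 0.801), with an unadjusted p of 5.73e-05 and a limma adjusted p of 0.260. Unlike Fos, it was larger with log2 library size in the model (−0.69).

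The other genes among the 12 smallest p in the lower direction covered several functions. Stag2, a subunit of the cohesin ring, differed by −0.46 ± 0.12, and Cul3, a scaffold of ubiquitin ligases, by −0.34 ± 0.09. Foxo6, a forkhead factor of the brain, differed by −0.54 ± 0.14 and Phf6, a chromatin-associated zinc finger protein, by −0.56 ± 0.16. Rhobtb3 (−0.49), Gstm7 (−0.48), Gyg (−0.31), which primes glycogen synthesis, and Pim3 (−0.31), a serine/threonine kinase, completed these with Dnajb1 (−0.36). Their unadjusted p-values lay between 0.000618 and 0.00277, and all adjusted p-values from limma were 0.695 or 0.915. For Cul3, Gyg, Pim3, Rhobtb3 and Dnajb1 all 10 EXT mice were below the FC median of their batch.

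In the higher direction the smallest p was that of Jsrp1, known from the sarcoplasmic reticulum of muscle, at 0.52 ± 0.12 (unadjusted p = 0.000310, adjusted p = 0.695). All 10 EXT mice were above the FC median of their batch, which held for 44 of the 8203 genes (0.536%). Spred2, an inhibitor of the Ras to MAP kinase pathway, was 0.44 ± 0.11, with EXT mice at 4.16 to 5.00 and FC mice at 3.82 to 4.49. In 9 of 10 EXT mice Spred2 was above the FC median of the batch, which at least 9 of 10 mice reached in 3.04% of all genes. Yap1, a coactivator of the Hippo pathway, was 0.67 ± 0.19, and rested on 140 to 342 reads in EXT and 71 to 224 in FC. Bhlhe41, a repressor of the circadian clock, was 0.65 ± 0.18 but differed by −0.14 in batch 2 against 0.54 and 1.09 in batches 1 and 5. Kcna5, a voltage-gated potassium channel subunit, was 0.48 ± 0.13. Ctxn1 (0.38), Stum (0.39), Txnl4b (0.50), Rad23b (0.34), Gas7 (0.61), Stard10 (0.52) and the noncoding RNA gene C330006A16Rik (0.62) were the others, with unadjusted p-values from 0.000705 to 0.00321.

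Chaperones held the most lower genes among the lists of cellular machinery. Of 61 heat shock proteins and chaperonins, 7 were lower at an unadjusted p under 0.05 (11.5% against 2.41% of all genes) and 0 were higher, although the list median was −0.02. Dnajb1, a cochaperone of HSP70 induced by stress, ranged from 6.54 to 7.18 in EXT and from 6.76 to 7.74 in FC and differed by −0.36 ± 0.10 (unadjusted p = 0.00189). Hspa4l (−0.33 ± 0.11) and Dnaja1 (−0.30 ± 0.11) were also below the FC median of the batch in all 10 EXT mice. The others were Hsph1 (−0.22) and 3 subunits of the chaperonin that folds actin and tubulin, Cct3 (−0.26), Cct8 (−0.24) and Cct6a (−0.24). The count was 3 without EXT mice 26 or 52 or FC mice 42 or 43 (147 to 207 of all genes lower). It was 4 without EXT mice 57 or 60 (186 and 143 of all genes lower) and at most 10 without any other mouse. With log2 library size in the model it was 3 (233 of all genes lower). It was 2 without batch 2 and 0 without batch 5, where 196 and 187 of all genes were lower. In males alone and in females alone it was 2, where 370 and 76 of all genes were lower. Of 23 genes of the unfolded protein and ATF4 responses, 2 were lower and 0 higher at an unadjusted p under 0.05, against 2.41% and 2.74% of all genes. They were Psat1 (−0.41 ± 0.12) of serine synthesis and Sesn2 (−0.39 ± 0.12), a stress sensor upstream of mTORC1.

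Glucocorticoids released during stress act on Crh neurons through the receptor encoded by Nr3c1. Of 26 genes of this pathway in the table, 3 were lower (Dusp1, Cdkn1a at −0.32 ± 0.12 and Errfi1 at −0.21 ± 0.10) and 0 higher at an unadjusted p under 0.05, against 2.41% and 2.74% of all genes, with a median of −0.085. The count of lower genes was 1 without batch 2 and 0 in females alone. Cholesterol synthesis held 2 lower genes of 21, Hmgcs1 (−0.32 ± 0.15) and Idi1 (−0.28 ± 0.12), and a median of −0.081, against 2.41% of all genes lower. This count was 0 or 1 without any 1 of 11 mice (EXT mice 21, 26, 52, 57 and 60, FC mice 12, 18, 19, 42, 43 and 45), and 0 without batch 2 or with log2 library size in the model. Of 31 aminoacyl-tRNA synthetase genes 1 was lower, Iars (−0.40 ± 0.16), and 1 higher, Lars2. Lars2, the mitochondrial leucyl-tRNA synthetase, differed by 1.37 ± 0.45, but this rested on 3 EXT mice of batch 5 at 13.31, 13.43 and 13.77 log2 cpm, while the 7 other EXT mice (9.45 to 10.95) and the FC mice (8.96 to 10.71) overlapped. The ubiquitin-specific peptidases (37 genes), proteasome subunits (35), translation factors (55) and mitochondrially encoded transcripts (8) held 0 genes past the unadjusted threshold, whether higher or lower, and had medians of −0.078, −0.017, 0.016 and −0.071. The mitochondrial list depended on which mice were in the fit. In males alone all 8 transcripts were lower at an unadjusted p under 0.05, with a median of −1.01, where 370 of all 8203 genes were lower. With the astrocyte marker mean in the model 2 were higher (166 of all genes) and the median was 1.11. Leaving out 1 mouse gave medians from −0.54 to 0.26.

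Most genes of the postsynaptic and channel lists were above 0, as were 53.1% of all genes, with few past the threshold (2.74% of all genes higher and 2.41% lower). Of 26 postsynaptic scaffold and CaMKII genes 20 were above 0, the median was 0.17, and 1, Dlgap3 (0.46 ± 0.22), was higher at an unadjusted p under 0.05. Without batch 5 this median was −0.03, and the count was 0 to 4 when 1 mouse was left out and 7 without batch 1 (286 of all 8203 genes higher). Of 20 calcium, sodium and HCN channel genes 19 were above 0, with a median of 0.17, and Scn2b, a sodium channel beta subunit, was higher (0.66 ± 0.22). Without batch 5 the median of this list was −0.01. Of 28 glutamate and GABA receptor genes, Grin2b (0.38 ± 0.16), the GluN2B subunit of the NMDA receptor, and Grik5 (0.36 ± 0.15), a kainate receptor subunit, were higher. Among 34 potassium channel genes Kcna5 alone was higher and 0 were lower, with a median of 0.096. Of 58 synaptic vesicle and SNARE genes 4 were higher and 1 lower. They were Stxbp2 (0.65 ± 0.23), Syt7 (0.50 ± 0.23), Cplx2 (0.41), Unc13c (0.34) and, lower, Rab3b (−0.38 ± 0.15). For Stxbp2 the groups overlapped in batches 1 and 5 but not in batch 2 (EXT 5.22 to 6.23, FC 3.04 to 3.73 log2 cpm). In batch 2 the summed choroid plexus markers were also higher in EXT (6717 to 51048 cpm, FC 1143 to 3842), and a link was not tested. The count of higher genes was 1 or 2 without any 1 of 11 mice (EXT mice 21, 26, 58 and 60, FC mice 12, 18, 19, 42, 43, 45 and 48). Of 80 cytosolic ribosomal protein genes 76 were above 0, with a median of 0.095, but 1 (Rps15, 0.19 ± 0.09) was at an unadjusted p under 0.05, and with log2 library size in the model the median was −0.13. The count was 22 without FC mouse 47 and 22 with array weights, where 295 and 456 of all 8203 genes were higher, and 0 or 1 without any other mouse. Of 88 nuclear genes of oxidative phosphorylation 75 were above 0 and 1 (Atp5k, 0.26 ± 0.12) was at an unadjusted p under 0.05. This count was 12 without FC mouse 47, 7 without EXT mouse 28, 0 to 4 without any other mouse, 13 without batch 5, 13 with array weights and 25 with the oligodendrocyte marker mean in the model. Higher genes among all 8203 numbered 295 without FC mouse 47, 343 without EXT mouse 28 and 161 without batch 5. They numbered 456 with array weights and 380 with the oligodendrocyte marker mean.

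**Figure D4:**
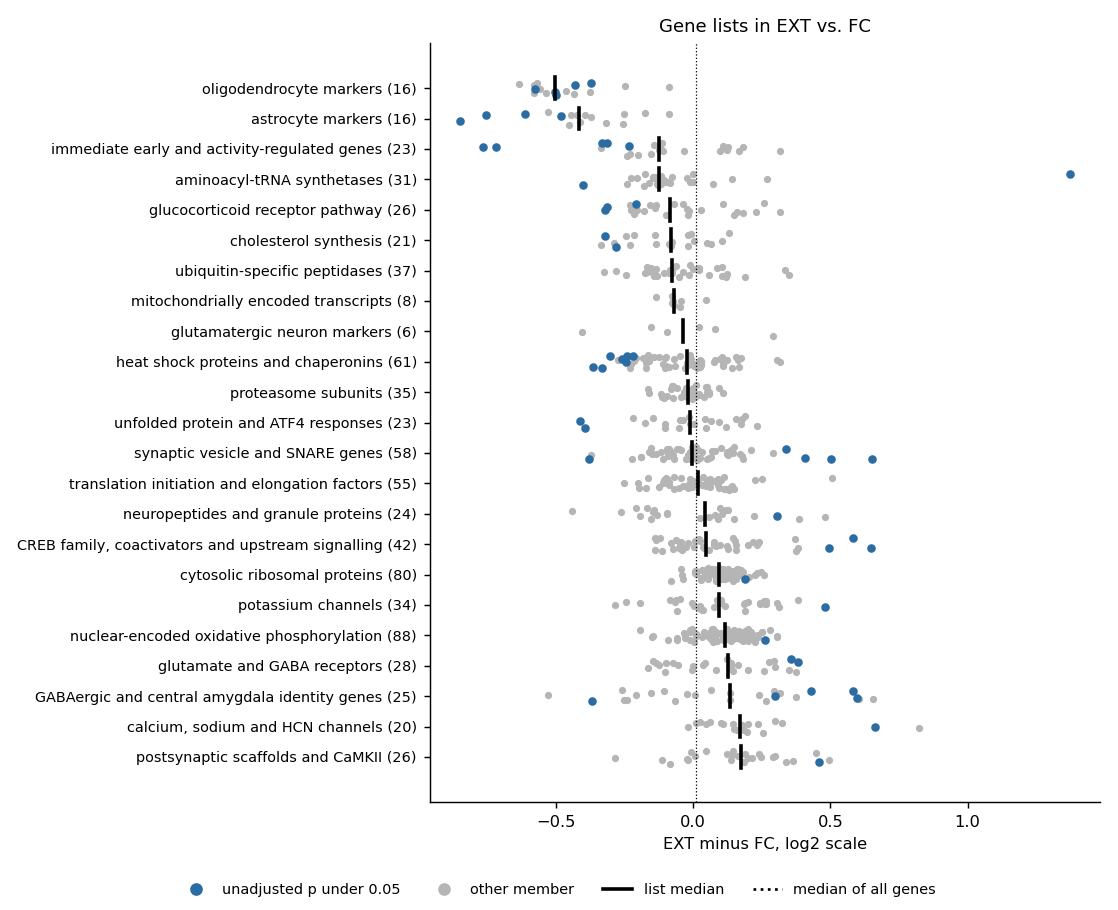
EXT minus FC difference on the log2 scale (horizontal axis) for the members of each list with 6 or more genes in the table (number in brackets). Blue points have an unadjusted p under 0.05, black bars are list medians and the dotted line is the median of all genes, 0.0099; the 2 glial lists have the lowest medians, −0.50 and −0.42, and no member above 0.

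Identity genes of the central amygdala pointed both ways. Of 25 in the table, 4 were higher at an unadjusted p under 0.05 (against 2.74% of all genes), Ebf1 (0.43 ± 0.16), Ppp1r1b, Arpp21 (0.60) and Zfhx3 (0.30), and Foxp2 (−0.37 ± 0.17) was lower (against 2.41%). The count of higher genes was 9 without EXT mouse 28 (343 of all 8203 genes higher), 1 or 2 without any 1 of 11 mice (EXT mice 26, 52, 58 and 60, FC mice 13, 17, 19, 42, 43, 45 and 47) and 0 without batch 2. Of 24 neuropeptide and granule protein genes in the table, Pcsk2 (0.31 ± 0.14), a convertase that cuts peptide precursors, was higher. Sst differed by 0.15 ± 0.20, Penk by 0.39 ± 0.21, Tac1 by 0.12 ± 0.20 and Nts by −0.13 ± 0.20, all with unadjusted p-values over 0.05, as had Prkcd (−0.26 ± 0.39), which marks another class of central amygdala neurons.

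All fitted differences of glial markers were below 0, most of them short of the threshold. All 16 oligodendrocyte markers in the table were below 0 (46.9% of all genes), with a median of −0.50, and 5 were lower at an unadjusted p under 0.05 (2.41% of all genes). They included Cnp (−0.50 ± 0.16), a myelin enzyme, and the lineage factors Sox10 (−0.50 ± 0.18) and Olig1 (−0.43 ± 0.14). The summed level of the list ranged from 2557 to 5283 cpm in EXT (median 3863) and from 2250 to 20586 in FC (median 4038). The median sum was higher in EXT in batch 1 (3594 against 2774) and batch 2 (3553 against 3481) and lower in batch 5 (4174 against 6047). The 2 highest were FC mice 12 and 13 of batch 5, at 9427 and 20586. Without them 1 marker was lower (193 of all genes) and the median was −0.21. Without batch 5 the median was −0.03. The count was 10 without FC mouse 43 (160 of all genes lower). It was 8 without EXT mouse 26 or FC mouse 45 (207 and 182 of all genes lower). It was 3 without any 1 of EXT mice 21, 24, 58 and 59 and FC mice 13, 42, 47 and 48. In the latter fits 147 to 268 of all genes were lower. Cnp, like Dnaja1, Gas7 and Chpt1, overlaps a protein-coding gene on the other strand.

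All 16 astrocyte markers were also below 0 (46.9% of all genes), with a median of −0.42, and 4 were lower (2.41% of all genes), Gfap (−0.85 ± 0.35), Fabp7 (−0.76 ± 0.28), Acsbg1 (−0.61 ± 0.22) and Ntsr2 (−0.48). Their sum ranged from 1277 to 3132 cpm in EXT (median 1827) and from 1245 to 2963 in FC (median 2497), and 8 of 10 EXT mice were below the FC median of their batch. The count was 12 without EXT mouse 28 or FC mouse 16 (282 of all 8203 genes lower in each fit). It was 11 without EXT mouse 21 (254 of all genes lower), and 2 without EXT mouse 58 or FC mouse 42. In males alone 15 of the 16 were lower at an unadjusted p under 0.05, with a median of −0.78, and in females alone 0, with a median of −0.12. Of all genes, 370 were lower in males alone and 76 in females alone. Fabp7 was FDR-significant in males alone (−1.46, limma adjusted p = 0.0179). Its difference between the sexes, −1.25 ± 0.51 in males minus females, had an unadjusted p of 0.0222 and an adjusted p of 0.930.

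The defining microglial markers Cx3cr1, Csf1r, C1qa and Tmem119 were not in the table, nor were the endothelial markers Cldn5 and Pecam1. The 4 endothelial and mural markers had a median of 0.062, the 4 choroid plexus and ependymal markers 0.18 and the 6 glutamatergic markers −0.037, and none of these was at an unadjusted p under 0.05. The choroid sum ranged from 186 to 51048 cpm in EXT and from 673 to 19373 in FC, with EXT mice 51 and 52 of batch 2 the highest at 51048 and 34306. With the mean of the astrocyte markers in the model the Fos difference was −0.80, and with that of the oligodendrocyte markers −0.74. It was −0.58 without FC mice 12 and 13 (unadjusted p = 0.00140) and −0.72 without EXT mice 51 and 52. For Arc these 4 values were −0.73, −0.82, −0.60 and −0.75. All 4 alternatives were chosen after seeing the data.

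**Figure D5:**
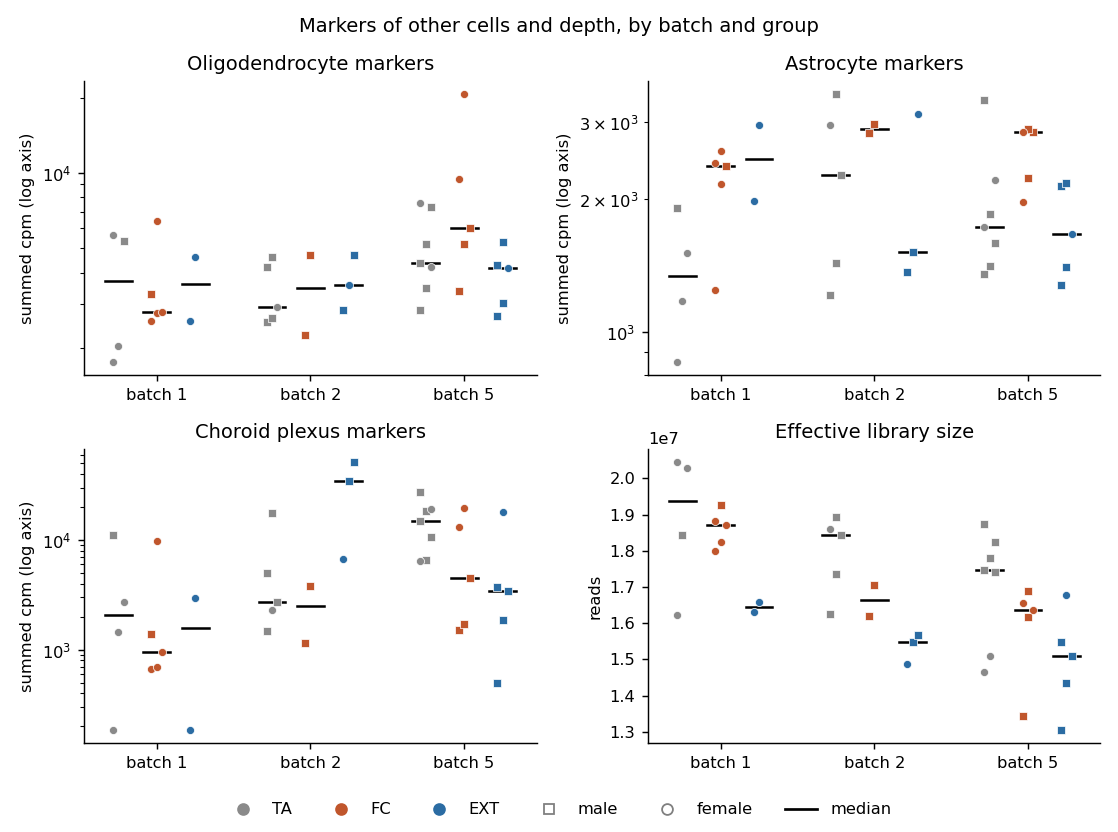
Summed cpm of oligodendrocyte (16 genes), astrocyte (16) and choroid plexus markers (4), on log axes, and effective library size in reads, in each mouse of batches 1, 2 and 5 by group (colours and symbols as for the plot of early genes; black lines are medians). By effective size, EXT libraries are smaller than all FC libraries of batches 1 and 2, and FC mouse 13 of batch 5 has the highest oligodendrocyte sum, 20586 cpm.

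Whether EXT vs. FC differed between the sexes or between batches was tested with interaction terms. For sex, no gene passed the FDR (0) and 413 (5.03%) were at an unadjusted p under 0.05, again close to the share passed when no gene differs. The smallest p-values belonged to Thrsp, with −1.37 in males and 0.49 in females, Selenoi (0.38 and −0.43), Fgfr1 (0.52 and −0.41) and Pcnx (0.83 and −0.53). Their adjusted p-values from limma were 0.477 to 0.871. Fgfr1 encodes a fibroblast growth factor receptor, and Thrsp a nuclear regulator of lipid synthesis. For batch, the numbers were 0 and 633 (7.72%). The smallest belonged to Fam135a, Stxbp2, Wbp1 and Chpt1. In all 4 the EXT minus FC difference was highest in batch 2, at 0.99, 2.36, 1.43 and 1.26, while in batch 5 it was −0.53, 0.16, −0.40 and −0.89. Batch 2 holds 3 EXT mice and 2 FC mice, the fewest of the 3 batches.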

How the data were processed

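TRAP-seq of amygdala punches was deposited for 44 mice, of which 22 were compared here. Per the methods and labels, the authors used Trimmomatic 0.36 for trimming, STAR for alignment (GRCm38), SAMtools for sorting, and edgeR and voom of limma on the gene counts. The authors deposited log2 values in cpm, with an offset of 0.5 reads, for 8203 genes that passed their minimum cpm in all samples. Whole reads were recovered for 360932 of 360932 values (tolerance 0.01). The lowest count in the 22 mice was 34 reads, and the median gene had 898.2.

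EXT and FC were compared with lmFit and eBayes of limma 3.58.1 (R 4.3.3) on these values, with batch categories and sex, two-sided, at an FDR of 0.05. Group, batch and sex came from the labels, and each mouse was a replicate. An unadjusted p under 0.05 only describes. Genes named are Crh, the early and CREB family genes, the 12 smallest p in each direction, up to 3 per list at an unadjusted p under 0.05, and the 4 smallest p per interaction. Others were named after their values were seen. What batch stands for, and a gene counter, are not given in the sources used here. Members and lists were chosen with earlier results of these data known. Genes were placed with GENCODE M21, and promoters were those of RefSeq. The fit was tested on simulated reads. Alternatives are in the closing section.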

Additional observations from a re-analysis of the deposited data

Results flagged for a closer look

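In 7 of the 98 values examined, 1 of the 10 EXT mice stood apart from the others by Dixon's criterion, which chance meets in about 1 of 20 groups. The criterion pools EXT mice over batches whose levels differ, so the FC range of the batch is given for each. EXT mouse 21 of batch 2 had the lowest Crh, 3.49 log2 cpm, against 4.95 to 6.31 in the other 9 and 4.98 to 5.21 in FC of batch 2. The same mouse was lowest in Phf6, at 2.93 against 4.00 to 5.04 (FC of the batch 5.30 to 5.47), and in Dnaja1, at 7.94 against 8.54 to 9.12 (FC 9.21 to 9.28). EXT mouse 28 of batch 1 was highest in Junb, at 7.01 against 5.49 to 6.14, and in Vgf, at 7.05 against 4.75 to 5.85, but both values lay within the FC range of batch 1 (6.42 to 7.39 and 6.09 to 7.13). EXT mouse 26 of batch 1 was lowest in Atf1, at 2.75 against 3.53 to 4.21, and in Fabp7, at 2.79 against 4.55 to 6.32, where FC mice of batch 1 had 3.19 to 3.53 and 3.07 to 4.85.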

How the results depend on the processing

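With FDR as the threshold, 0 genes passed in the reported fit and 0 in every alternative except array weights (2, Fos and Arc), without batch 1 (1, Tenm4), males alone (1, Fabp7) and, when mice were left out one at a time (0 to 1), without FC mouse 47 (1, Fos). The 423 genes at an unadjusted p under 0.05 became 280 with a mean log2 value of at least 5, which tests fewer genes, 894 with array weights, 762 in males alone and 134 in females alone. They became 754 with the oligodendrocyte and 279 with the astrocyte marker mean as a covariate, both added after the data were seen. Leaving out 1 mouse gave 263 to 625, the lowest without EXT mouse 60. The library size difference of −0.12 (log2) was −0.10 without batch 1 (exact permutation p = 0.121). Selenoi reversed to 0.38 in males alone and Pcnx to −0.53 in females alone. Where not stated, the cause was not tested. Fos kept its sign and an unadjusted p under 0.05 in 21 of 21 alternatives that kept it among the genes tested (−0.86 to −0.46) and in 22 of 22 fits without 1 mouse, and Rsrp1 did so in 22 of 22 and 22 of 22. No paired analysis was possible because no animal number is shared between the groups.

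With 10 and 12 mice, the median size of an estimated difference (0.098) was below the median standard error of 0.13 on the log2 scale. Estimates of that size could not be told apart from 0 one gene at a time, and 0.098 is not a measure of true differences. Genes under the depositors' filter were not analysed here.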
